A study of Mus musculus with 16 samples.

Results

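The 10 genes described here encode inducible brakes on kinase and calcium signalling: 7 dual-specificity phosphatases of MAP kinases (*Dusp1*, *Dusp2*, *Dusp4*, *Dusp5*, *Dusp6*, *Dusp8* and *Dusp10*) and 3 other feedback regulators (*Trib1*, *Rcan1* and *Spry1*). They are 10 of the 35647 genes in the table, named as a fixed list because of their values in the comparison of bacterial strains in ileum. That comparison is therefore given for them as a description, without a test. The data are bulk RNA-seq of lamina propria immune cells from mice of wild-type genotype that were raised germ-free and then carried 1 bacterium for 5 weeks. Age and sex are not given in the labels. Cells were taken from a Percoll gradient, and poly-A RNA was sequenced. In the WT groups the bacterium was wild-type *Bifidobacterium breve*, and in the Δchat groups it was a *B. breve* strain that makes no acetylcholine. Colon and ileum were taken from 8 mice, which gave 4 libraries in each of 4 groups: colon WT, colon Δchat, ileum WT and ileum Δchat. Each difference is between mice that all carry *B. breve*.

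MAP kinases (ERK, JNK and p38) are switched on by phosphorylation of a threonine and a tyrosine in their activation loop, and dual-specificity phosphatases remove both phosphates. Many of these phosphatases are transcribed within minutes of stimulation as immediate early or delayed early genes, so that the pathway induces its own inhibitor. In the gut mucosa they are known for limiting cytokine output of macrophages and T cells.

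The promoters of the members were examined because several are textbook targets of stimulus-activated factors. RefSeq promoter sequence on GRCm38.p6 was at hand for 8 of the 10 members, in 9 windows, since *Rcan1* has 2 start sites, and not for *Dusp4* and *Trib1*. The search covered the 250 bases before each start, on both strands. The cAMP response element TGACGTCA, which reads the same on both strands, lay before the start of *Dusp1*, *Dusp8* and the downstream start of *Rcan1*, and 1.55% of 32851 promoter windows hold it. The stretches below are upstream of the annotated start, on the minus strand of the genome for these 3 genes. They are shown because they hold this element, and capitals mark the elements named.
Dusp1 (chr17:26508583-26508652, cAMP response element beginning 143 bases before the start): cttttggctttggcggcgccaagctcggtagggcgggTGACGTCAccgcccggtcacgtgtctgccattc
Dusp8 (chr7:142095320-142095419, elements beginning 107 and 63 bases before the start): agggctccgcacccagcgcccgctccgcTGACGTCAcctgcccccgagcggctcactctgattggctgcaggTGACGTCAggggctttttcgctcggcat
Rcan1, downstream start (chr16:92400169-92400278, elements beginning 175 and 110 bases before the start): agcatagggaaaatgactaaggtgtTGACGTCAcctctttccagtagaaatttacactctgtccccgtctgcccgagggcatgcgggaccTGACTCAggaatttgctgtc

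*Dusp8* held the element in 2 copies, which 10 of the 32851 windows (0.0304%) do. The *Rcan1* window also held a copy of TGANTCA, the AP-1 element, which 6.75% of windows hold, and 3 copies of GGAAA, the core letters that NFAT reads, counted on either strand. At least 3 such copies stand in 6.39% of windows and at least 1 in 55.6%, and no match overlapped another. *Dusp5* has a pair of adjacent CArG boxes, the sites that serum response factor reads, and 1.47% of windows hold a CArG box. Its stretch lies on the plus strand, with the boxes in capitals, and the window also held 1 NFAT core sequence.
Dusp5 (chr19:53529045-53529094, boxes beginning 82 and 72 bases before the start): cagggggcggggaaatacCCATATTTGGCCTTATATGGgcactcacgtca

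None of the 4 motifs was found in the windows of *Dusp2*, *Dusp10*, *Spry1* or the upstream start of *Rcan1*, and that of *Dusp6* held 2 NFAT core sequences alone. These matches describe the letters only. The table counts genes, so transcripts from the separate *Rcan1* starts were not told apart.

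The libraries held between 15.9 M and 23.6 M estimated counts, and the lowest count of a member in any library was 383, for *Dusp8*. Expression is given as CPM, the counts scaled to the effective size of each of the 16 libraries. All 10 members passed the filter on low counts in each comparison. Per kilobase of exon, *Dusp1* stood highest, at 291 CPM per kb over all libraries, followed by *Dusp5* at 194, *Dusp4* at 70.1, *Dusp2* at 64.1, *Dusp6* at 48.5, *Dusp10* at 34.7, *Trib1* at 30.7, *Spry1* at 15.5, *Rcan1* at 15.0 and *Dusp8* at 6.02. Markers of cells other than leukocytes were present: 14 stromal markers summed to between 1554 and 9710 CPM in a library and 10 endothelial markers to between 1568 and 4916 CPM. Of leukocyte lists, 10 T cell markers summed to 232 to 711 CPM, 8 B cell markers to 334 to 3781 CPM and 10 macrophage markers to 299.5 to 3615 CPM. The 9 plasma cell markers summed to 17806 to 151564 CPM. Sums over different genes do not give shares of cells. Epithelial markers, 16 in all, summed to 61.2, 130, 240 and 125 CPM in the colon WT libraries and to 278, 334, 3940 and 279 CPM in the colon Δchat libraries, so that all colon Δchat libraries lay above all colon WT libraries and replicate 3 far above the rest. In ileum they summed to between 73.2 and 500.1 CPM. *Fxyd3*, 1 of the 16 markers, was at 0 in 1 colon library and 1 ileum library. In bulk RNA, fewer cells of a type and less RNA per cell cannot be told apart.

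**Figure D1:**
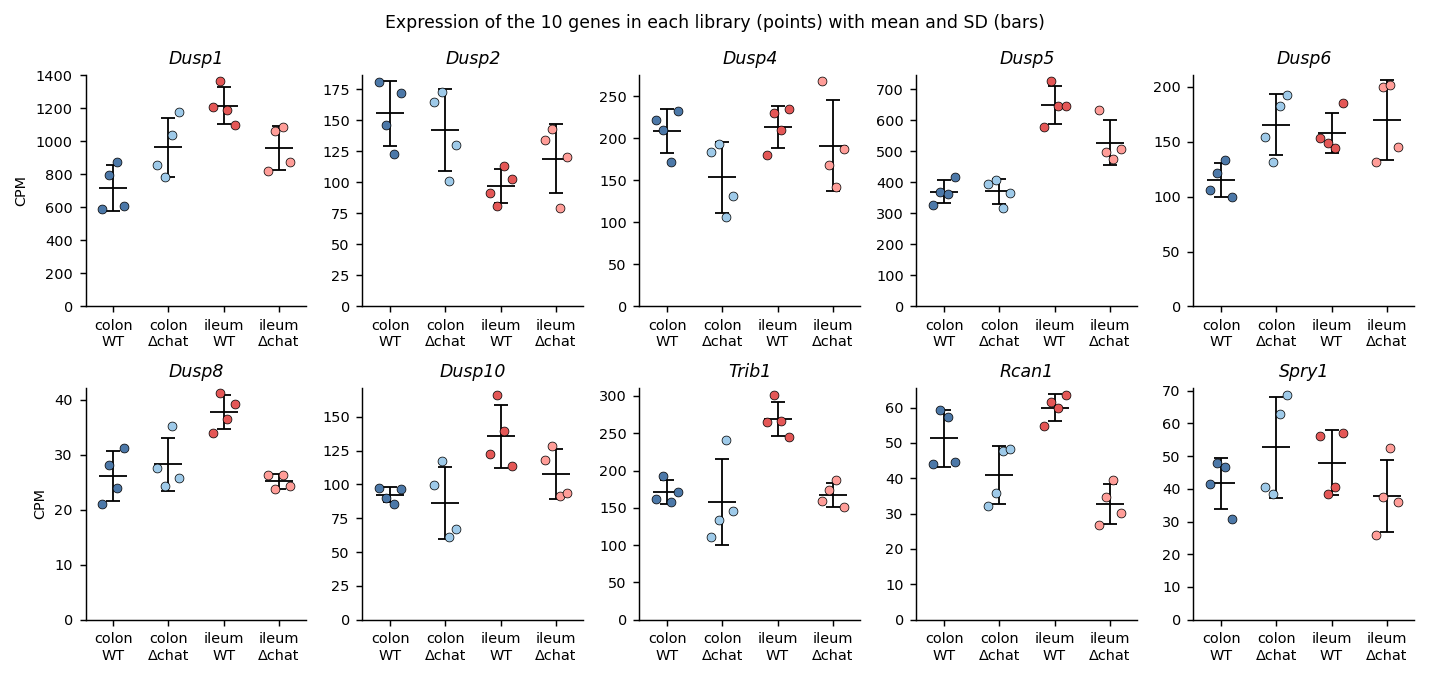
CPM of each of the 10 genes (vertical axes, from 0) in the 16 libraries, with points for libraries and bars for mean and SD of the 4 libraries of each group. The ileum WT libraries of *Trib1*, at 245 CPM and above, lie over all 12 other libraries, which reach 241 CPM. *Trib1* was picked on the ileum strain contrast.

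In ileum, 8 of the 10 members stood lower on average with the Δchat strain than with WT *B. breve*, and *Rcan1*, *Trib1*, *Dusp8* and *Dusp1* had all 4 Δchat libraries under all 4 WT libraries. Over all 14496 genes tested there, 46.8% had a log2 fold change below 0 and 53.2% above, and 3.34% had all Δchat libraries under all WT libraries. The reverse order, seen for 3.85% of genes, was seen for 0 members. The members were picked on this contrast, so nothing is read from their counts. Their median log2 fold change was -0.36, beside 0.015 for all genes tested. Fold changes below are Δchat against WT, on the log2 scale, with the standard error (SE) of the edgeR fit.

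*Dusp8*, a phosphatase with preference for JNK and p38, read 34.0, 41.2, 36.6 and 39.2 CPM in the ileum WT libraries and 26.3, 23.8, 26.3 and 24.3 CPM in the ileum Δchat libraries, with a log2 fold change of -0.61 ± 0.09. The strains did not overlap, and the Δchat libraries lay close together. *Dusp10*, which also acts on JNK and p38 and restrains T cell cytokines, had a mean of 135 ± 23.1 CPM in ileum WT and 108 ± 18.2 CPM in ileum Δchat (SD, n = 4), and the strains overlapped (-0.36 ± 0.15).

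*Dusp1*, the nuclear phosphatase that ends p38 and JNK signalling in stimulated macrophages, read 1207, 1365, 1190 and 1098 CPM in ileum WT and 819, 1063, 1088 and 874 CPM in ileum Δchat (log2 fold change -0.36 ± 0.13). The highest Δchat library was just under the lowest WT library. *Dusp5*, a nuclear phosphatase of ERK, read 579, 727, 647 and 646 CPM in ileum WT and 634, 498, 474 and 506 CPM in ileum Δchat. Replicate 1 of Δchat lay among the WT libraries and the other 3 lay under them (-0.32 ± 0.11). The remaining phosphatases overlapped between strains: *Dusp4*, another nuclear ERK and JNK phosphatase (-0.18 ± 0.18), *Dusp6*, the cytoplasmic ERK phosphatase (0.08 ± 0.16), and *Dusp2*, a nuclear phosphatase of activated lymphocytes and myeloid cells (0.27 ± 0.17). *Dusp2* and *Dusp6* were the members with values above 0.

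*Trib1*, a pseudokinase that guides the ubiquitin ligase COP1 to C/EBP factors and binds MEK, read 265, 301, 266 and 245 CPM in ileum WT and 160, 173, 187 and 151 CPM in ileum Δchat (-0.71 ± 0.10). Its mean in ileum Δchat was 168 ± 16.1 CPM, beside 171 ± 15.7 CPM for WT and 158 ± 57.3 CPM for Δchat in colon (SD, n = 4). *Rcan1*, which binds and inhibits the calcium-dependent phosphatase calcineurin and is itself induced by calcineurin and NFAT, read 54.7, 61.5, 59.9 and 63.6 CPM in ileum WT and 26.7, 34.8, 39.6 and 30.1 CPM in ileum Δchat. Its log2 fold change of -0.89 ± 0.13, which is 1.85-fold lower, was the farthest from 0 of the 10. *Spry1*, a Sprouty protein that damps ERK signalling from receptor tyrosine kinases, ranged from 38.4 to 56.9 CPM in WT and from 25.8 to 52.4 CPM in Δchat, with overlap (-0.36 ± 0.23).

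Cell type markers were compared between the strains in ileum as well. Over all genes, 46.8% had values below 0, 53.2% above, and 3.34% were lower without overlap. Of 9 neutrophil markers tested, 8 had values below 0, 4 of them without overlap, and the list summed to between 311 and 432 CPM in WT and between 137 and 270 CPM in Δchat. *Fpr1* was at 0 in 1 of the 8 ileum libraries. All 6 eosinophil markers tested had values below 0, with sums of 75.4 to 111 CPM in WT and 46.6 to 74.0 CPM in Δchat. One of them, *Alox15*, was called lower (log2 fold change -3.17 ± 0.34, edgeR adjusted p = 0.0498), among 3 genes called in that contrast. *Ear1* and *Ear6* were at 0 in all 8 ileum libraries and *Epx* in 5. Of 14 stromal markers, 8 had values below 0, with sums of 4517 to 7153 CPM in WT and 1554 to 7117 CPM in Δchat, and of 9 plasma cell markers 8 did, with sums of 83100 to 151564 CPM and 51283 to 89124 CPM. T cell markers were below 0 in 9 of 10, 1 without overlap, with sums of 543 to 711 CPM in WT and 434 to 628 CPM in Δchat. B cell markers (8 of 8), epithelial markers (16 of 16) and macrophage markers (9 of 10) had values above 0. Of the B cell, epithelial and macrophage markers, 0 were called and 0 had an unadjusted p below 0.05 with edgeR. In the lists named before them, 6 neutrophil, 6 plasma cell, 2 eosinophil and 1 T cell marker reached that level, all lower. So did 1 stromal marker, which was higher. Over all genes, 10.9% did. The part of these markers in the members' values was not tested.

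**Figure D2:**
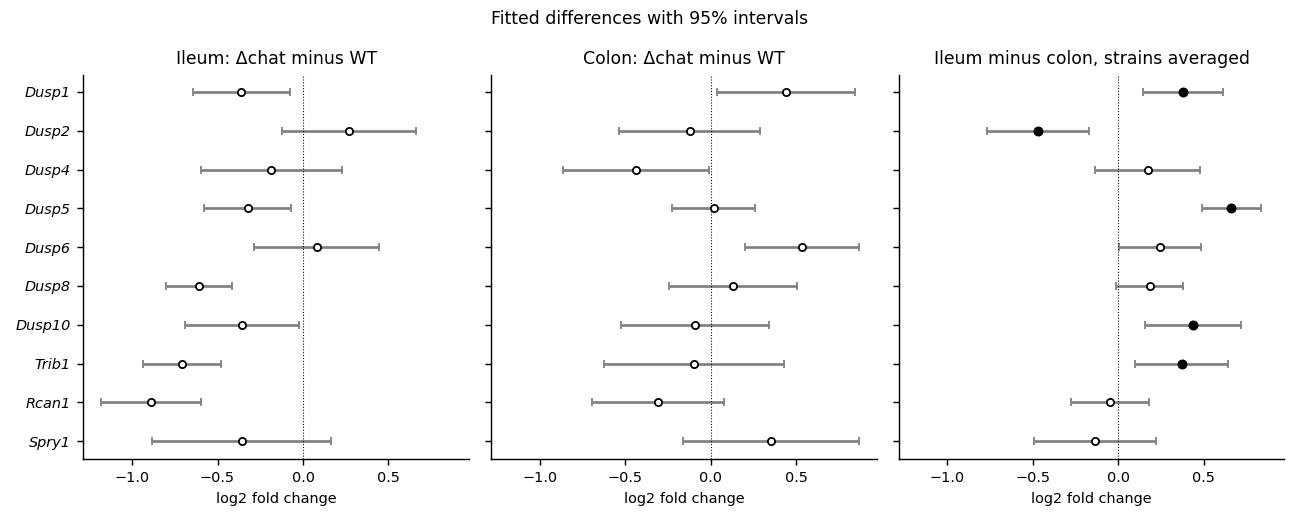
Log2 fold changes of the 10 genes from the edgeR fits with their 95% intervals, for the strain in ileum, the strain in colon and ileum minus colon. Filled circles mark an adjusted p below 0.05 in the tested comparisons, which none of the 10 reached in colon and 5 reached between tissues; ileum strain values were not tested.

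In colon, the same strains were compared in other libraries, and no member passed. The genes were chosen mainly on ileum but with earlier results of these data known, so colon is not an independent check. Of the 14660 genes tested there, 1 was called, which is 0.00682%. All 10 members overlapped between strains, where 3.72% of genes had all Δchat libraries above WT and 3.59% all below. At an unadjusted p below 0.05, edgeR gave 3 of the 10 members, 2 higher and 1 lower, where 13.3% of all genes reach that level. DESeq2, which called 2.1% of all genes, called *Dusp6* alone among the members, and limma-voom called none. The median log2 fold change of the 10 was -0.04, with 5 above 0 and 5 below, beside 0.01 for all genes, of which 51.0% were above 0 and 49.0% below.

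*Dusp6* read 106, 121, 134 and 99.6 CPM for WT and 154, 132, 183 and 193 CPM for Δchat. Most Δchat libraries lay over the WT libraries, and the lowest Δchat value was just under the highest WT value. Its log2 fold change was 0.54 ± 0.15 (edgeR adjusted p = 0.313; DESeq2 adjusted p = 0.0403; range over 17 alternatives 0.0403 to 0.587). *Dusp1* averaged 718 ± 141 CPM with WT in colon and 964 ± 179 CPM with Δchat (SD, n = 4), a log2 fold change of 0.44 ± 0.18 (edgeR adjusted p = 0.345), where its ileum value was below 0. The single colon libraries of *Dusp1* read 588, 798, 875 and 610 CPM in WT and 859, 781, 1037 and 1179 CPM in Δchat, so the groups overlapped. *Dusp4* averaged 209 ± 26.3 CPM with WT and 154 ± 42.0 CPM with Δchat (SD, n = 4), and its log2 fold change was -0.44 ± 0.19 (edgeR adjusted p = 0.368).

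The genes with the lowest ileum values did not pass in colon. *Rcan1* read 44.0, 59.2, 57.4 and 44.5 CPM for WT and 32.0, 35.8, 47.7 and 48.2 CPM for Δchat, with a log2 fold change of -0.31 (95% interval -0.70 to 0.08, edgeR adjusted p = 0.455). *Trib1* read 162, 193, 158 and 171 CPM for WT and 110, 134, 241 and 146 CPM for Δchat. Replicate 3 was the one Δchat library over the WT range, and it is the library with the high epithelial sum. The log2 fold change of *Trib1* was -0.10 (95% interval -0.62 to 0.43, edgeR adjusted p = 0.880), and -0.40 without that library (adjusted p = 0.288). *Dusp8* was highest in the same library, at 35.3 CPM, where the other Δchat libraries read 27.7, 24.3 and 25.7 CPM and the WT libraries 21.0, 28.1, 23.96 and 31.3 CPM. Its log2 fold change was 0.13 (95% interval -0.25 to 0.51, edgeR adjusted p = 0.750), and -0.01 without that library. With an epithelial score as covariate, added to the edgeR fit as an alternative, *Trib1* was -0.65, *Rcan1* -0.56, *Dusp6* 0.37, *Dusp1* 0.26 and *Dusp4* -0.09, and none passed (adjusted p 0.481 to 0.917 for these 5). The score, a mean log2 CPM of the epithelial markers, ran from 1.05 to 3.06 in colon WT and from 3.24 to 7.07 in colon Δchat. Score and strain therefore cannot be told apart in that fit. Plasma cell markers were below 0 in 9 of 9, 8 without overlap, with sums of 33806 to 66471 CPM in WT and 17806 to 24530 CPM in Δchat, and B cell markers were below 0 in 8 of 8. Epithelial markers were above 0 in 16 of 16, 7 without overlap and 14 at an unadjusted p below 0.05, with a median log2 fold change of 3.21. Macrophage markers (10 of 10), mast cell markers (9 of 9) and dendritic cell markers (8 of 9) were also above 0, 10, 3 and 5 of them at an unadjusted p below 0.05. None of these markers was called by edgeR. No plasma or macrophage marker was at 0 in any library, and the part of these lists in the members' values was not tested.

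The other 4 members spanned 0 in colon. *Dusp5* averaged 369 ± 37.0 CPM with WT and 371 ± 41.0 CPM with Δchat (SD, n = 4), with an interval of -0.22 to 0.26. *Dusp2* had an interval of -0.53 to 0.29, *Dusp10* one of -0.52 to 0.34 and *Spry1* one of -0.16 to 0.87. Differences inside these intervals remain possible with 4 libraries a group. Whether the strain effect of a member differs between colon and ileum was not tested, since that difference contains the ileum contrast on which the genes were picked.

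Between tissues, averaged over strains, 5 members passed: *Dusp5*, *Dusp10*, *Dusp1* and *Trib1* were higher in ileum and *Dusp2* was lower. This average weighs WT and Δchat equally and so does not contain the ileum strain contrast. Differences between tissues were widespread, with 38.2% of 15198 genes called, 18.5% higher in ileum and 19.7% lower (41.9% in all with DESeq2 and 41.2% with limma-voom). The members' 4 and 1 calls stand against that background. Of the 10, 7 had values above 0 and 3 below, where 45.0% and 55.0% of all genes do, and 6 had an unadjusted p below 0.05, where 48.0% do.

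*Dusp5* had the smallest p of the members. It read 474 to 727 CPM in the 8 ileum libraries, with the values given above, against 327, 370, 361 and 417 CPM for colon WT and 395, 409, 316 and 365 CPM for colon Δchat. All ileum libraries lay over all colon libraries, as they do for 4.36% of genes tested, while the reverse holds for 2.16%. The log2 difference was 0.66 ± 0.08 (edgeR adjusted p = 4.0e-05), and it passed under all 16 alternatives (adjusted p 6.8e-15 to 3.0e-04). *Dusp10* went from a mean of 89.3 CPM in colon to 122 CPM in ileum (log2 difference 0.44 ± 0.13, edgeR adjusted p = 0.0179), and *Dusp1* from 841 to 1088 CPM (0.38 ± 0.11, edgeR adjusted p = 0.0146). By strain, *Dusp1* averaged 718 ± 141 CPM in colon and 1215 ± 111 CPM in ileum with WT, and 964 ± 179 CPM in colon and 961 ± 134 CPM in ileum with Δchat (SD, n = 4). The split by strain contains the ileum contrast on which the genes were picked, so nothing is read from it.

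*Dusp2* went the other way, from a mean of 149 CPM in colon to 108 CPM in ileum (-0.47 ± 0.14, edgeR adjusted p = 0.0166). Its libraries ran from 101 to 181 CPM in colon and from 79.5 to 143 CPM in ileum, so the tissues overlapped. *Trib1* had a log2 difference of 0.37 ± 0.13 (edgeR adjusted p = 0.0315). Its group means were 171 and 158 CPM in colon WT and Δchat, 269 CPM in ileum WT and 168 CPM in ileum Δchat. The 1 group standing apart, ileum WT, is a side of the strain contrast on which *Trib1* was picked. The call of *Trib1* was lost when any of 7 of the 8 mice was left out (all but Δchat replicate 3), with adjusted p values from 3.8e-04 to 0.0955 over all alternatives. *Dusp1* was not called without the mouse WT replicate 1 (adjusted p = 0.0543) or Δchat replicate 2 (0.0570), *Dusp2* without WT replicate 1 (0.0567), and *Dusp10* without WT replicate 2 (0.0533). Over their 16 alternatives, adjusted p ran from 0.00329 to 0.0570 for *Dusp1*, from 0.00269 to 0.0567 for *Dusp2* and from 0.00437 to 0.0533 for *Dusp10*.

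The other 5 members did not pass between tissues. *Dusp6* (0.24 ± 0.11, edgeR adjusted p = 0.0960) and *Dusp8* (0.18 ± 0.09, edgeR adjusted p = 0.124) had positive differences. *Dusp8* was called with the mouse as a block (adjusted p = 0.0461), with limma-voom (0.0297) and without the mouse Δchat replicate 3 (0.0316), and *Dusp6* without Δchat replicate 4 (0.0438). Adjusted p ran from 0.0297 to 0.232 for *Dusp8* and from 0.0438 to 0.305 for *Dusp6* over 16 alternatives. *Dusp4* had an interval of -0.13 to 0.48, *Rcan1* one of -0.28 to 0.18 and *Spry1* one of -0.49 to 0.22. Cell type marker RNA differed as well, where 18.5% of all genes were called higher in ileum and 19.7% lower. All 10 macrophage markers tested and 9 of 10 T cell markers were called higher. The 1 other T cell marker and all 8 B cell markers were called lower. Endothelial markers were called higher in 9 of 10 and plasma cell markers in 8 of 9. Of 14 stromal markers, 7 were called lower and 1 higher. Macrophage markers summed to between 299.5 and 801 CPM in colon and between 830.0 and 3615 CPM in ileum, and no macrophage, T cell or B cell marker was at 0 in any library. The part of cell makeup in the members' differences was not tested.

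Within groups, 8 of the members fell into 2 sets that varied in opposite directions between libraries of the same group. For this, the log2 CPM of each library was taken as its deviation from its group mean, which removes strain and tissue. *Dusp2*, *Dusp4*, *Dusp5* and *Dusp10* correlated with each other (Pearson r from 0.43 to 0.83 over 6 pairs, 16 libraries), and so did *Dusp1*, *Dusp6*, *Rcan1* and *Spry1* (r from 0.65 to 0.85 over 6 pairs). All 16 pairs across the sets had r below 0, from -0.82 to -0.35. The sets were chosen after these values were seen, and the libraries come from 8 mice, so the correlations are a description.

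In the 8 colon libraries alone, pairs across the sets ran from -0.86 to -0.35, and in the 8 ileum libraries from -0.86 to 0.31, with 1 of 16 pairs above 0. Without the epithelium-rich colon library they ran from -0.82 to -0.30. *Trib1* varied with the second set (r from 0.34 with *Dusp6* to 0.62 with *Rcan1*) and against the first (r from -0.63 to -0.41), and had r = 0.60 with *Dusp8*. Both *Trib1* (241 CPM) and *Dusp8* (35.3 CPM) were highest of their group in the epithelium-rich colon library. No r of *Trib1* or *Dusp8* was taken without that library.

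Some cell type marker lists varied along the same line, and others followed it weakly or in part. Macrophage markers had r of 0.29 to 0.49 with the second set, and r was also above 0 with *Dusp2* (0.05) and *Dusp10* (0.19). With *Dusp4* and *Dusp5* it was below 0. Neutrophil markers had r of 0.0031 to 0.31 with the second set. The deviation of the T cell markers had r of 0.86 with *Dusp10*, 0.68 with *Dusp4*, 0.65 with *Dusp2* and 0.40 with *Dusp5*. With *Dusp1*, *Dusp6*, *Rcan1* and *Spry1* its r lay between -0.60 and -0.46. Endothelial markers were the reverse, with r of 0.83 for *Dusp6*, 0.74 for *Spry1*, 0.71 for *Rcan1* and 0.60 for *Dusp1*. B cell markers had r of -0.85 with *Dusp6*. *Dusp8* had r = -0.66 with the neutrophil markers within groups. These values share library, depth and scaling, and have no test.

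**Figure D3:**
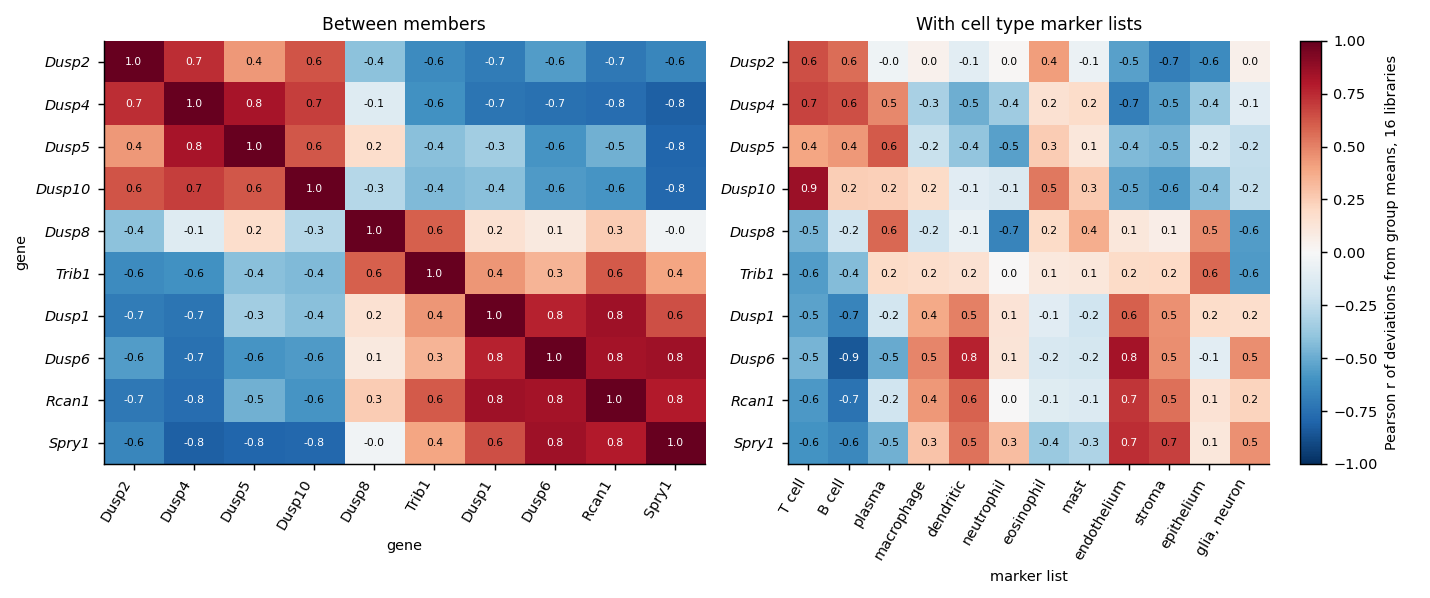
Pearson r of deviations from group means over 16 libraries, between members (left) and between members and the mean of each cell type marker list (right), with colour from -1 to 1. The 4 genes *Dusp2*, *Dusp4*, *Dusp5* and *Dusp10* form 1 positive block and *Dusp1*, *Dusp6*, *Rcan1* and *Spry1* another, with r from -0.82 to -0.35 between them.

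The gene most like *Dusp1* over all 16 libraries was *Fos*, an immediate early gene and subunit of AP-1 (Pearson r = 0.96, Spearman rho = 0.91 on log2 CPM, and r = 0.90 for deviations from group means). *Fos* ranged from 1294 to 1833 CPM in colon WT, from 1572 to 2621 in colon Δchat, from 2423 to 2677 in ileum WT and from 1648 to 2344 in ileum Δchat. For *Dusp8* the 5 genes most alike were *Piwil4* (r = 0.84), *Trib1* (0.80), *Rhob* (0.80), *Arfip1* (0.80) and *Fosb* (0.80). For deviations from group means, their r with *Dusp8* was lower, at 0.61, 0.60, 0.58, 0.60 and 0.41 in that order. All 5 genes and *Dusp8* were highest of colon Δchat in the epithelium-rich library, and no r was taken without it. *Piwil4* lay near the floor, at 0.22 to 1.46 CPM. The 1 gene most like each of the others was *Vav2* for *Dusp2* (r = 0.97), *Tmem248* for *Dusp4* (0.94), *Azin1* for *Dusp5* (0.96), *Pdgfd* for *Dusp6* (0.95), *Aebp2* for *Dusp10* (0.94), *Mapk6* for *Trib1* (0.93), *Rfx2* for *Rcan1* (0.95) and *Laptm4b* for *Spry1* (0.91). These are the highest of many correlations over libraries that share group differences.

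**Figure D4:**
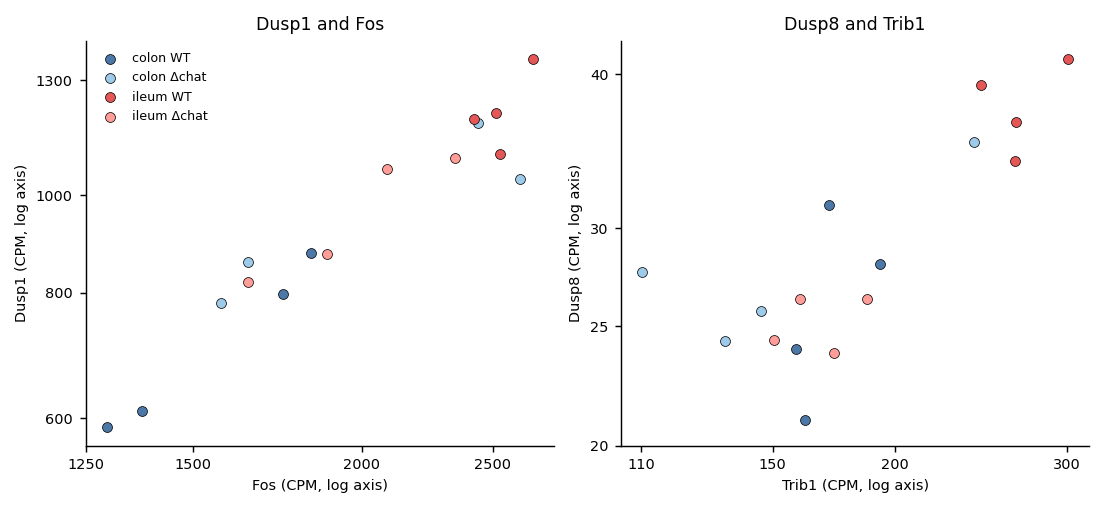
*Dusp1* against *Fos* (left) and *Dusp8* against *Trib1* (right), in CPM on log axes, with 1 point per library coloured by group. *Dusp1* follows *Fos* over the 16 libraries (r = 0.96). The ileum WT libraries lie high for *Dusp8* and *Trib1*, which were both picked on the ileum strain contrast. Replicate 3 of colon Δchat, at 35.3 CPM of *Dusp8*, lies over the lowest ileum WT library, at 34.0 CPM.

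Other genes of the pathway were taken from 6 lists. The lists were chosen with earlier results of these data known, so their counts and medians are a description. Their calls between tissues are to be read against the 38.2% of all genes called there, 18.5% higher in ileum and 19.7% lower, and a count near those shares is no result about a list. Immediate early genes, the transcription factors and regulators induced alongside the phosphatases, had values below 0 in 28 of 32 tested members in ileum (median -0.24) and above 0 in 29 of 33 in colon (median 0.22). None was called over all genes in either tissue by edgeR. At an unadjusted p below 0.05 there were 13 lower and 0 higher in ileum, and 8 higher and 0 lower in colon. Over all genes, 10.9% in ileum and 13.3% in colon reached that level. Called were 0.0207% in ileum, all lower, and 0.00682% in colon, all higher. Between tissues, 18 of 33 were called higher in ileum and 5 lower, with a median of 0.32 beside -0.04 for all genes. *Csrnp1* (0.55 ± 0.07) and *Egr4*, a zinc finger factor (1.59 ± 0.21), were higher, and *Myc*, the growth regulator (-0.84 ± 0.17), and *Egr3* (-0.35 ± 0.09) were lower. *Maff*, *Klf6*, *Fosl2* and *Ier3* were also higher (0.50 to 0.89), and *Nr4a1* (-0.23 ± 0.06), *Btg1* (-0.28 ± 0.11) and *Etv4* (-1.56 ± 0.45) were lower. *Etv4* read 6.80 CPM in the epithelium-rich colon library and 1.19 to 1.73 CPM in the other colon Δchat libraries.

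The MAP kinases and their activators had a median of 0.0007 over 37 genes in ileum and 0.01 over 36 in colon, with none called and with 6 and 5 at an unadjusted p below 0.05. Between tissues, 9 of 37 were called higher and 6 lower, near the 38.2% of all genes called. *Mapkapk2*, a kinase downstream of p38 (0.46 ± 0.07), was higher in ileum, and *Rps6ka5*, a kinase downstream of ERK and p38 (-0.62 ± 0.09), was lower. Also higher were *Mapk14*, which encodes p38α, *Map2k3*, *Rps6ka1* and *Ksr1* (0.19 to 0.60), and also lower were *Mapk11*, *Map3k1*, *Map3k5* and *Map3k7* (-0.83 to -0.26).

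The other dual-specificity phosphatases had a median of -0.02 over 16 tested genes in ileum and 0.02 over 17 in colon, with none called and with 4 and 3 at an unadjusted p below 0.05. The calls between tissues, 6 of 17, were near the 38.2% of all genes. The 3 called higher were *Dusp7*, an ERK phosphatase (0.27 ± 0.08), *Dusp19* (0.50 ± 0.15) and *Dusp23* (0.47 ± 0.15). The 3 called lower were *Dusp11*, which acts on RNA (-0.28 ± 0.05), the slingshot phosphatase *Ssh2* (-0.52 ± 0.12) and *Styx*, a pseudophosphatase (-0.36 ± 0.09). Related feedback inhibitors, among them further Sprouty, Spred, Tribbles and SOCS genes, had medians of 0.02 in ileum and 0.09 in colon over 23 genes, with none called and 3 at an unadjusted p below 0.05 in each. In ileum against colon, 9 of 23 were called, near the 38.2% of all genes. Of these, 6 were higher, with *Socs1*, a brake on cytokine receptors (0.72 ± 0.09), and *Ptprr*, a tyrosine phosphatase of MAP kinases (1.16 ± 0.19), and 3 lower, with *Rcan2*, a relative of *Rcan1* (-0.82 ± 0.16), *Sh2b3* (-0.44 ± 0.09) and *Ppm1a* (-0.31 ± 0.07). The other 4 higher genes were *Ptpn7*, *Cish*, *Spry4* and *Gab2* (0.45 to 0.59).

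Genes of calcineurin, NFAT and calcium entry, which act upstream of *Rcan1*, had medians of 0.03 over 17 genes in ileum and -0.01 over 18 in colon, with none called and with 1 and 3 at an unadjusted p below 0.05. Between tissues 8 of 18 were called, near the 38.2% of all genes. Of these, 4 were higher, with the calcium entry genes *Stim2* (0.36 ± 0.07) and *Orai1* (0.31 ± 0.06), and 4 lower, with *Nfatc3* (-0.80 ± 0.16) and *Ppp3ca*, a catalytic subunit of calcineurin (-0.37 ± 0.08). *Stim1* and *Nfatc2* were the other higher genes (0.16 and 0.35), and *Nfatc1* and *Nfatc4* the other lower ones (-0.33 and -0.61). NF-kB response and feedback genes had values below 0 in 20 of 25 genes in ileum (median -0.17) and in 13 of 25 in colon (median -0.0021), with none called and with 8 and 5 at an unadjusted p below 0.05. Between tissues 13 of 25 were called higher, with *Nfkbiz* (1.08 ± 0.10) and the inhibitor *Nfkbia* (0.75 ± 0.08). Also among them were the chemokine genes *Ccl3* (1.62 ± 0.25) and *Ccl4* (1.72 ± 0.20), *Icam1* (1.32 ± 0.15) and *Tnfaip3* (0.77 ± 0.12). The 2 lower genes were *Rel* (-0.83 ± 0.17) and *Tnip3* (-1.04 ± 0.23).

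**Figure D5:**
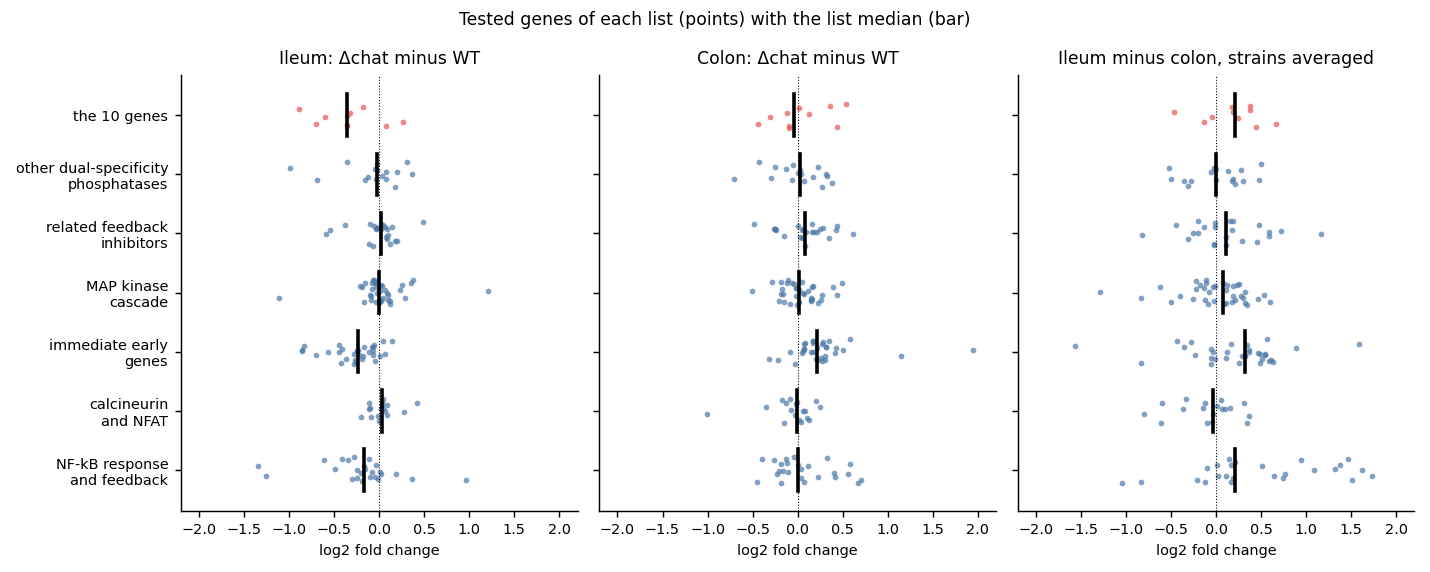
Log2 fold changes of the tested genes of each list (points) with the list median (black bar), for the strain in ileum, the strain in colon and ileum minus colon. Immediate early genes lie mostly below 0 in the first panel (median -0.24) and above 0 in the second (median 0.22), while the MAP kinase cascade centres on 0 in both.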

How the data were processed

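The authors deposited estimated counts per Ensembl gene for 16 libraries, made with cutadapt 5.0 and Salmon 1.4.0 on GRCm39 per the submitters' processing notes; how transcripts were summed to genes is not given in the sources used here. Symbols matched 35105 of 35647 identifiers. Counts were rounded and analysed in R 4.3.3 with edgeR 4.0.16: filterByExpr, TMM, robust quasi-likelihood tests, Benjamini-Hochberg adjustment over all genes, threshold 0.05. Strain fits used 8 libraries of a tissue, and the tissue contrast used all 16. The method was tested on simulated data. CPM are scaled over 16 libraries; correlations use log2 CPM with a prior count of 2. Lengths are GENCODE M21 exons. Members and lists were chosen with earlier results of these data known. Named list genes were up to 6 per list and direction, by smallest p among those called, and the genes most correlated with a member. Of the genes this names, 2 are not reported here. Groups came from titles. Colon and ileum libraries of the same strain and number were taken as 1 mouse, per their library names; their deviations correlated at -0.18 to 0.27. Numbers do not pair mice across strains. No replicates were copies (chi-square per degree of freedom 26.7 to 98.4). Alternatives included DESeq2 1.42.0 and limma-voom 3.58.1.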

Additional observations from a re-analysis of the deposited data

Results flagged for a closer look

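No member had a lone library in any of its 40 groups of 4, judged by the gap to the nearest library against the whole range. Among all 248 groups checked, which include the 52 list genes named, 16 had one, and chance gives about 1 in 20. In colon WT these were *Egr4* in replicate 4 (3.61 CPM, the others 1.59 to 1.88), *Spry4* in replicate 3 (46.1 CPM, the others 34.9 to 35.5), *Mapk14* in replicate 4 (86.9 CPM, the others 96.4 to 97.5), and *Klf6* (470.0 CPM, the others 546 to 556) and *Etv4* (0.383 CPM, the others 0.839 to 0.903) in replicate 1. In colon Δchat they were *Ssh2* (189 CPM, the others 234 to 241) and *Etv4* (6.80 CPM, the others 1.19 to 1.73) in replicate 3, and *Egr4* (3.07 CPM, the others 2.34 to 2.43) in replicate 4. In ileum WT, replicate 2 stood apart for *Klf6* (1280 CPM, the others 890 to 903) and *Tnfaip3* (2360 CPM, the others 1650 to 1740). Replicate 3 of ileum WT stood apart for *Dusp23* (10.1 CPM, the others 8.35 to 8.45) and *Gab2* (32.2 CPM, the others 35.1 to 35.6), and replicate 4 for *Ptprr* (41.7 CPM, the others 29.4 to 31.3) and *Orai1* (51.4 CPM, the others 45.0 to 45.8). In ileum Δchat they were *Mapkapk2* in replicate 2 (256 CPM, the others 188 to 194) and *Rel* in replicate 3 (318 CPM, the others 580 to 617).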

How the results depend on the processing

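The ileum median of the members stayed between -0.41 and -0.28 over 17 alternatives. There, 168 of 170 single values kept their sign, and *Dusp6* was -0.0904 with limma-voom and -0.0282 to 0.189 with a library left out (below 0 without Δchat replicate 3). In colon, DESeq2 called 1 member higher, and 0 were called under the other 16 alternatives, the replicate block (which pairs unrelated mice) among them. Over all genes DESeq2 called 308 in colon, where edgeR called 1. Colon values that changed sign did not pass before or after. They were *Dusp2* 0.0532 and *Dusp10* 0.0299 with limma-voom, and *Dusp2* 0.248, *Dusp8* -0.168 and *Dusp10* 0.187 with the epithelial score as covariate. That score did not overlap between the colon strains. With a library left out, *Dusp2* ran from -0.231 to 0.00133, *Dusp5* from -0.036 to 0.0832, *Dusp8* from -0.0105 to 0.232, *Dusp10* from -0.275 to 0.0316 and *Trib1* from -0.395 to 0.0292. The library that turned *Dusp2* and *Dusp8* was Δchat replicate 3, *Dusp10* turned without Δchat replicate 3 or 4, *Trib1* without Δchat replicate 1, and *Dusp5* without WT replicate 1 or Δchat replicate 1 or 2. Between tissues, 2 to 5 members were called higher and 0 to 1 lower with a mouse left out, and *Rcan1* ran from -0.0913 to 0.0241 (above 0 without WT replicate 3 or Δchat replicate 4). With the mouse as replicate block, 5 members were called higher and 1 lower, and *Dusp8* was the call gained. The cause of these shifts was not tested. Depth gave at least 383 counts per member and library; each group has 4 mice.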
